A study of Mus musculus with 12 samples.

Results

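The response of 4OHT-treated mouse embryonic stem cells to MG132, an inhibitor of the proteasome, was measured on 6 of the 12 arrays of the series. The arrays were chosen by their treatment labels: 3 held RNA of cells given 250 nM 4OHT for 6 h, and 3 held RNA of cells given 1 µM MG132 for 30 min and then MG132 with 250 nM 4OHT for 6 h. All cells, the 3 untreated arrays and the 3 arrays with MG132 alone included, grew in stem cell medium with LIF and 250 nM PD173074, an inhibitor of FGF receptors. The untreated arrays are labelled 0 h and those with MG132 alone 6 h. 4OHT is 4-hydroxytamoxifen, which is used to activate proteins fused to a modified estrogen receptor. The labels used here name neither the line, nor the fusion protein that 4OHT would act on, nor a vehicle.

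The proteasome is the protease that breaks down proteins tagged with ubiquitin, among them short-lived transcription factors such as p53, ATF4 and NRF2, and misfolded proteins. When it is blocked, cells are known to turn on chaperones through HSF1, the integrated stress response through ATF4, the antioxidant response through NRF2, and p53 targets, and NRF1 is known to raise the transcription of proteasome subunits. In embryonic stem cells ERK signalling downstream of FGF is known for moving cells away from the naive state, while LIF acting through STAT3 holds them in it.

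Because 33 of the 39 measured genes of the ATF4 list rose, the promoters of 4 that rose and of 1 that did not pass the test are shown first. The motif searched was TGATGNAA, the form bound by ATF4 with a C/EBP partner, on both strands. Windows run from 250 bases before to 50 after the RefSeq start, on GRCm38.p6, written 5′ to 3′ on the gene's strand with the match in capitals. Slc7a11, the cystine transporter subunit, lies at chr3:50443564-50443863 on the minus strand; Atf3, a stress-induced transcription factor, at chr1:191183284-191183583, minus; Chac1, which degrades glutathione, at chr2:119350992-119351291, plus; Nupr1, a stress-induced chromatin protein, at chr7:126625421-126625720, minus; and Asns, asparagine synthetase, at chr6:7693160-7693459, minus.
Slc7a11: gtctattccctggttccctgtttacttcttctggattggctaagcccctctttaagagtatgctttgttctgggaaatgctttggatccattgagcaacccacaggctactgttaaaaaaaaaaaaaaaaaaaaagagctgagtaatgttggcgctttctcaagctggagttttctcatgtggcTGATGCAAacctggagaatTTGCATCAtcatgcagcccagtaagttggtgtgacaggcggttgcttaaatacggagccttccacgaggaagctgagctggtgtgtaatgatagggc
Atf3: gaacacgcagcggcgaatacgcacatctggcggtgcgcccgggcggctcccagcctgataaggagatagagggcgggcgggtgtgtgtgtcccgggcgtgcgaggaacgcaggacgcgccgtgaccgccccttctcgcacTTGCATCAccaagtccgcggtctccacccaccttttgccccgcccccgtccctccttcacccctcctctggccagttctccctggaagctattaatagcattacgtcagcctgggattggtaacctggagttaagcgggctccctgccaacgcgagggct
Chac1: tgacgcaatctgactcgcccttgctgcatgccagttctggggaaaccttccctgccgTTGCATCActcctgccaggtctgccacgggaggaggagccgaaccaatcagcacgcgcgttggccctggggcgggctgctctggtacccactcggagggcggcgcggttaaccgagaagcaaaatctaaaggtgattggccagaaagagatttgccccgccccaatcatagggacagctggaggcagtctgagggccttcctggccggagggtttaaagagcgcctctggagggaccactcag
Nupr1: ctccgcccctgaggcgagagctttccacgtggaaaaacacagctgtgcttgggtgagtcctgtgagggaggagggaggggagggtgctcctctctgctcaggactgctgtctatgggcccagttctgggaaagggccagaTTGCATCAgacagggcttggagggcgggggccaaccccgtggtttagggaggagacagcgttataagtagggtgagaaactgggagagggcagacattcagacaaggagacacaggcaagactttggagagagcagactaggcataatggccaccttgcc
Asns: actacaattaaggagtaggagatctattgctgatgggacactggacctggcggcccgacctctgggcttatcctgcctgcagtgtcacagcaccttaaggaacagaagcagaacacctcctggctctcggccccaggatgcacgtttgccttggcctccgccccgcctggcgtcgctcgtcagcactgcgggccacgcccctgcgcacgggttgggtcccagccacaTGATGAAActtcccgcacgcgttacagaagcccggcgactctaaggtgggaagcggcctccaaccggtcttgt

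The first match begins at position -66 in Slc7a11, which holds 2, at -110 in Atf3, at -193 in Chac1, at -110 in Nupr1 and at -23 in Asns, counted from the start. Among the genes of the ATF4 list with a promoter sequence, 13 of 33 (39.39%) held the motif, against 1219 of all 27025 genes with one (4.51%) and 369 of the 12159 genes tested here (3.03%). Of the 13, 10 rose, which is 34.48% of the 29 list genes called higher with a promoter sequence, and Asns, Aars and Gars did not pass the test. Over all genes the motif stood in 3.89% of those called higher and 2.24% of those called lower. The heat shock element stood in 5 of 25 heat shock genes (20.0%) against 0.66% of all genes; Hsph1 and Dnajb6 of these rose, though not in a fit with the slide as a block (adjusted p = 0.639 and 0.139), and Hspe1, Hspd1 and Chordc1 did not pass the test. The antioxidant response element, searched as TGACNNNGC, stood in 10 of 22 genes of the NRF2 list (45.45%) against 13.99% of all genes and 16.35% of those tested here. Among the 10 genes of that list called higher with a promoter sequence it stood in 3 (30.0%), Srxn1, Gclm and Txnrd1, and the other holders did not pass the test. The cyclic AMP response element, searched as TGACGTNA, was found in 2 of 33 ATF4-list genes. It shares the letters TGAC with the antioxidant element, but a later letter differs, so the same TGAC cannot match both. These matches describe letters in the window and not binding.

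Levels are given as log2 of the processed intensity relative to the 75th percentile of each array, and a change is the level with both compounds minus the level with 4OHT. The 10 embryonic stem cell markers were well above background on all 6 arrays; of 11 markers of fibroblasts or feeder cells, 4 (Thy1, Acta2, Prrx1, Col1a2) were above background on all 6 and 2 (Lum, Twist2) on none. The summed level of the stem cell markers ran from 9.76 to 9.82 with 4OHT and from 8.96 to 9.17 with both compounds, that of the fibroblast markers from 5.44 to 5.77 and from 4.69 to 4.88, with Thy1 falling by 2.23 and Col1a1 rising by 2.45 within it, that of 6 primitive endoderm markers from -1.0 to 0.28 and from -0.54 to 0.35, and that of 4 markers of 2-cell-like cells from 2.08 to 2.42 and from 1.86 to 2.41. Fewer cells of a type and less RNA per cell cannot be told apart. Each array's 75th percentile was 309 to 461 intensity units, and 51.7% to 63.1% of spots were well above background. The design text calls the arrays of a group biological replicates, and the p-values rest on the spread among those replicates. The replicates with 4OHT were more spread than those with both compounds, with a standard deviation of gene levels around the group mean of 0.393 against 0.185.

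The 3 arrays with 4OHT lay on one slide and the 3 with both compounds on the other, so no value within a slide can be given. Of the arrays with MG132 alone, 2 lay on the first slide and 1, replicate 3, on the second, and a fit over all 12 arrays with slide and replicate number as blocks (the slide-blocked fit) takes the slide difference from them alone, so each slide-blocked value rests on that 1 array. Its slide term passed the threshold for 0 genes by limma, with 1534 at an unadjusted p under 0.05, which with 1 such array says little about the slide. The spike-in controls, RNA added in fixed amount, stood 3.97 ± 0.09 (SD, n = 3) above the 75th percentile with both compounds. With 4OHT they stood at 2.39, 3.22 and 3.49, a mean of 3.03 ± 0.58. Replicate 1 with 4OHT was the lowest of all 12 arrays.

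**Figure D1:**
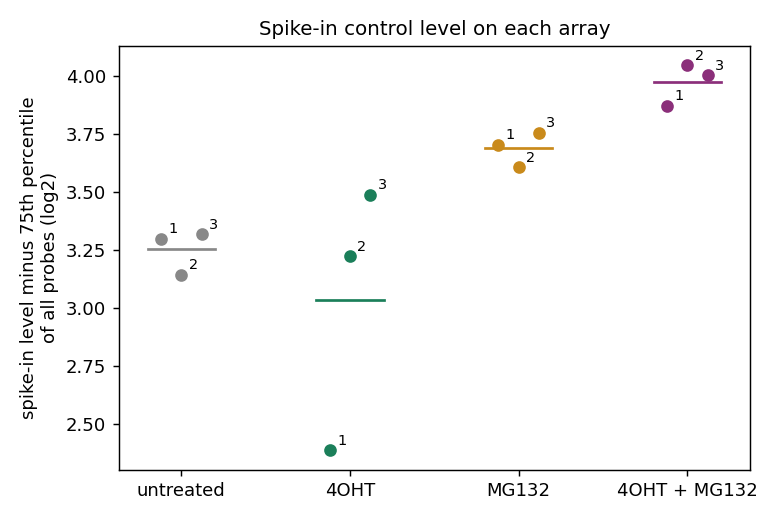
Level of 8 spike-in control probes relative to the 75th percentile of all probes (log2, y axis) on each of the 12 arrays, by group; points carry the replicate number and bars are group means. The 3 arrays with both compounds are the highest and replicate 1 with 4OHT, at 2.39, is the lowest.

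MG132 changed a large share of the genes measured in 4OHT-treated cells. Of 25227 genes, 11029 passed an adjusted p of 0.05 by limma with Benjamini-Hochberg adjustment (43.7%): 6564 were higher (26.0%) and 4465 lower (17.7%) with both compounds. At least 4-fold changes were called for 983 higher and 236 lower genes. The groups did not overlap in 15025 genes (59.6%), while the smallest p of an exact permutation test with 3 arrays a group is 0.1. Among the 11029 called genes they did not overlap in 11025, so for a called gene a lack of overlap adds little. The slide-blocked fit called 5120 genes, 2929 higher and 2191 lower, and 4864 of these were called in the same direction by both fits.

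The split into higher and lower depended on the scaling and on the probe filter. With only probes above background on every array in the fit, 4963 genes were higher and 4574 lower (52% higher). The main filter also keeps genes that passed through 1 group alone. Higher genes were 59.5% of the calls with the 75th percentile, 51.7% with normexp background correction, 53.4% with quantile normalization, 38.8% with median centring and 9.6% with centring on the spike-in controls. Over all genes the median change was 0.15, and it was -0.80 with spike-in centring, a shift of -0.94 that applies to each gene alike; without replicate 1 of 4OHT it was -0.45. A change between 0 and 0.94 is therefore below 0 with spike-in centring. Changes are read against the median of all genes, and the same holds for list medians: of the lists with a positive median, those of p53, ATF4 and the 2-cell-like state keep it with spike-in centring and the others turn below 0. Counts within a list are to be read against the 26.0% of all genes called higher and the 17.7% called lower.

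**Figure D2:**
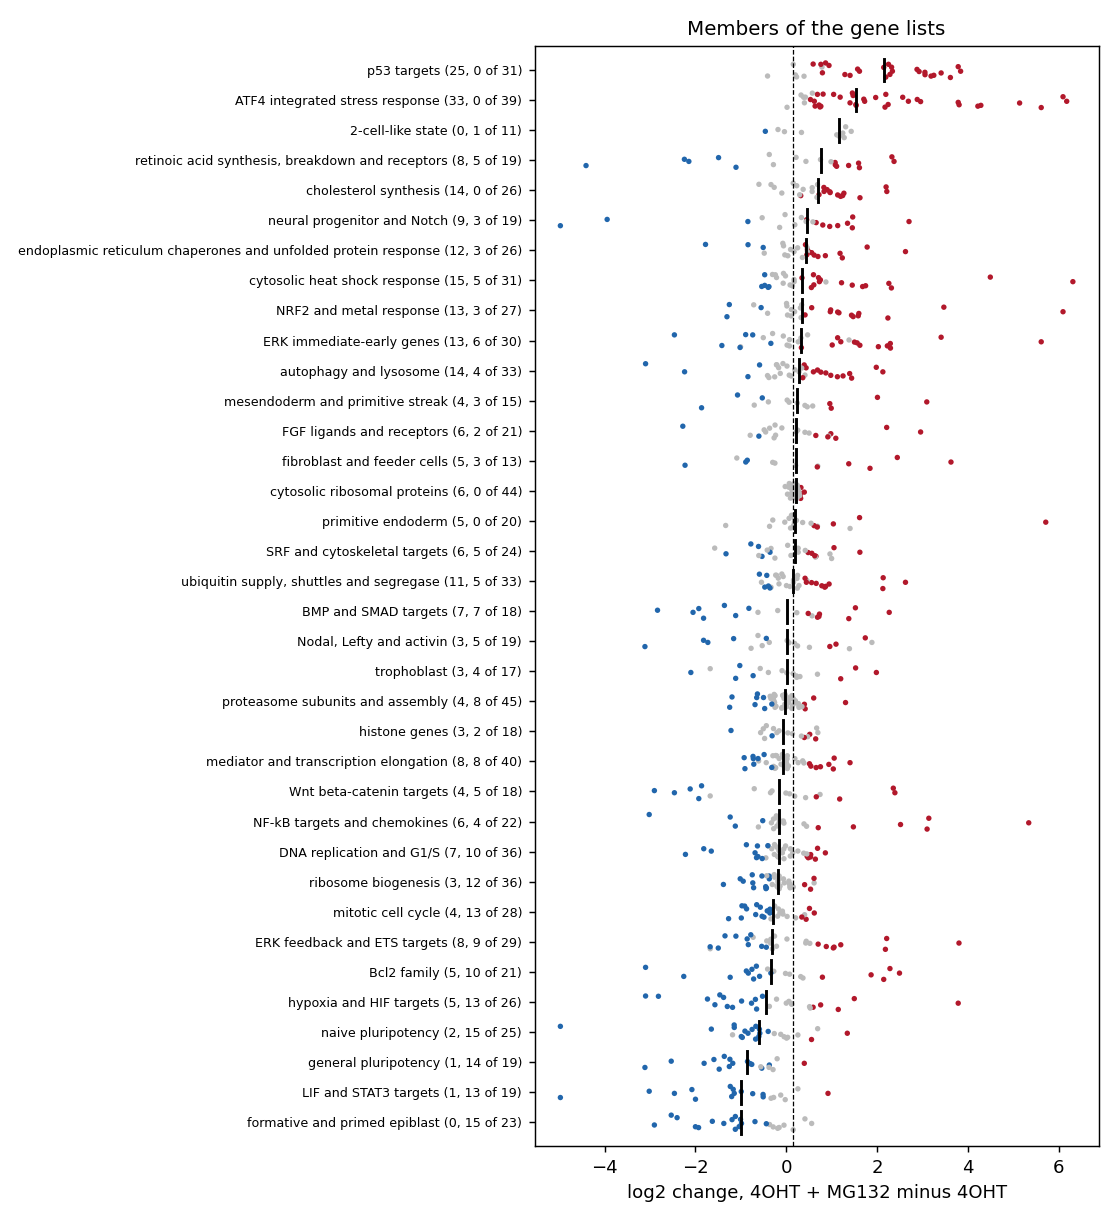
Log2 change with both compounds against 4OHT (x axis) for the members of each gene list; red points were called higher, blue lower and grey neither, black bars are list medians and the dashed line is the median of all genes, 0.15. Labels give the counts higher and lower of those measured; p53 targets (25 and 0 of 31) and ATF4 targets (33 and 0 of 39) lie farthest right and formative genes (0 and 15 of 23) farthest left; spike-in centring moves all points by -0.94, which turns the sign of medians between 0 and 0.94.

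Cytosolic chaperones split into a few very large rises and a majority with small changes. Of 31 heat shock genes, 15 rose and 5 fell; the list's median was 0.35, 0.22 in the slide-blocked fit (8 higher, 0 lower) and -0.59 with spike-in centring. Hspa1a, the inducible HSP70, stood at -1.22, -1.23 and -1.496 with 4OHT and at 5.07, 4.88 and 5.05 with both compounds. Among genes with a symbol and above background on all 6 arrays, it had the largest called rise. Hspa1a rose by 6.31 ± 0.13 (SE) or 79.5-fold (adjusted p = 7.07e-05 by limma). Its near-identical copy Hspa1b rose by 4.50 ± 0.16, and since probes can cross-hybridise between the 2 copies their separate levels are uncertain.

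The HSP40 co-chaperone Dnajb1 rose from 4.25, 4.15 and 4.07 to 6.47, 6.44 and 6.51, a change of 2.32, and Dnaja4 rose by 2.26. In none of these genes did the groups overlap. The constitutive HSC70, Hspa8, rose by 0.61, whereas the HSP90 genes Hsp90aa1 (0.88, adjusted p = 0.0739) and Hsp90ab1 (0.14, adjusted p = 0.299) and the HSP70 co-chaperone Bag3 (-0.07, adjusted p = 0.636) did not pass the test. Co-chaperones of HSP70 and HSP90 were among those that fell, with Fkbp4 at -0.54, St13 at -0.47 and Cacybp at -0.47. With the slide blocked the calls of Hspa8 (adjusted p = 0.19), Fkbp4 (adjusted p = 0.0519), St13 (adjusted p = 0.0573) and Cacybp (adjusted p = 0.0727) were lost. Hsf1, the main heat shock transcription factor, was at -0.015 (adjusted p = 0.931).

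Of 39 genes of the ATF4 list, 33 rose and 0 fell, with a median change of 1.53; the slide-blocked fit called 31 higher and 0 lower with a median of 1.69, and spike-in centring gave a median of 0.59 with 14 higher. Gdf15, a stress-induced secreted factor, rose from -3.90, -3.50 and -2.14 to 3.00, 2.94 and 3.03, a change of 6.18 ± 0.44. Ddit3, which encodes the pro-apoptotic factor CHOP, rose from -2.15, -1.94 and -2.04 to 3.17, 3.13 and 3.00, a change of 5.14 ± 0.11 or 35.3-fold (adjusted p = 7.07e-05). Both groups were tight for Ddit3, and for Gdf15 the spread lay within the 4OHT arrays.

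Atf3 rose by 5.62 ± 0.31, with 2 of 3 arrays above background under 4OHT, and Cebpb, a C/EBP factor that pairs with ATF4, by 4.29. Slc7a11 was not well above background on any 4OHT array and stood at -0.42, -0.40 and -1.78 with both compounds, which makes it at least 16.6-fold higher. Chac1 rose by 4.22, Nupr1 by 3.81 and the pseudokinase gene Trib3 by 2.57. Members of the amino acid branch moved less: the tRNA synthetase genes Cars and Nars rose by 1.46 and 1.19, while Asns stood at 6.37, 6.19 and 6.22 against 6.78, 6.65 and 6.33 (0.33, adjusted p = 0.121). The highest of its 4OHT arrays lay inside the range of the other group. The transcript of Atf4 itself rose by 0.745 (slide-blocked adjusted p = 0.1).

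The endoplasmic reticulum arm was smaller and mixed. Of 26 chaperone and unfolded protein response genes, 12 were called higher and 3 lower, the median being 0.44, 0.55 with the slide blocked and -0.50 with spike-in centring. Herpud1, of the degradation pathway of this compartment, rose by 2.63 and the chaperone gene Hspa5, BiP, by 1.24. Xbp1, a transcription factor of the unfolded protein response, fell from 4.74, 4.72 and 4.52 to 3.13, 3.08 and 2.44, a change of -1.78, with no overlap; the slide-blocked fit gave -1.46 (adjusted p = 0.0912). The array does not separate spliced from unspliced Xbp1.

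**Figure D3:**
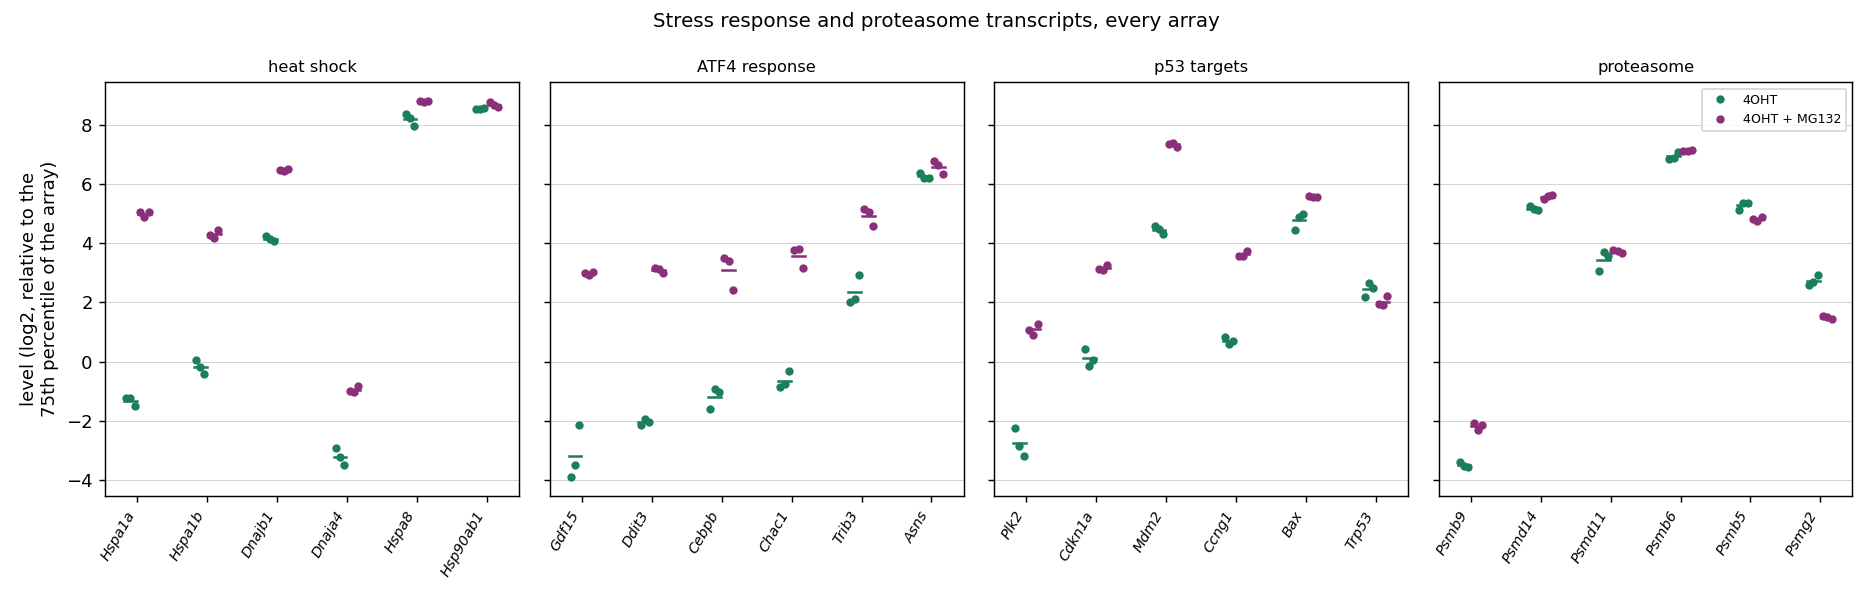
Levels (log2 relative to the 75th percentile of the array, y axis) of 24 genes on every array with 4OHT (green) and with both compounds (purple); bars are group means, n = 3 each. Hspa1a, Gdf15 and Ddit3 differ by more than 5 units with no overlap, whereas Asns, Hsp90ab1, Trp53, Psmd11 and Psmb6 did not pass the test.

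Antioxidant genes rose in part. Of 27 genes of the NRF2 and metal list, 13 rose and 3 fell, the median was 0.34, and it was -0.60 with spike-in centring. Osgin1, an oxidative stress-induced growth inhibitor, rose by 3.47, and Srxn1, which repairs oxidised peroxiredoxins, by 2.24. Hmox1, heme oxygenase, rose from 3.40, 3.61 and 3.36 to 5.16, 5.14 and 4.88, a change of 1.6, and both subunits of the glutathione-synthesis enzyme rose, Gclc by 1.59 and Gclm by 1.48. Metallothionein Mt1 went the other way, at -1.25, as did the glutathione transferase Gsta4, at -1.30. The transcript of NRF2 itself, Nfe2l2, was at 0.01 (adjusted p = 0.969), while its cytosolic partner Keap1 rose by 1.44 (slide-blocked adjusted p = 0.0677).

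In the autophagy and lysosome list, 14 of 33 genes were called higher and 4 lower; the median was 0.28, and -0.66 with spike-in centring. Sqstm1, the p62 receptor that carries ubiquitinated cargo, rose from 4.41, 4.998 and 4.75 to 6.94, 6.87 and 6.73, a change of 2.13, and Atg12, a conjugation factor, rose by 1.98. Tfeb, a transcription factor of lysosomal genes, fell by 2.24, although another of its probes moved the opposite way, and Bnip3, a mitophagy receptor and HIF target, fell by 3.10.

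Proteasome subunit transcripts did not rise as a group. Of 45 subunit and assembly genes, 4 rose (8.89%) and 8 fell (17.8%) against 26.0% and 17.7% of all genes, with a median of -0.03; the slide-blocked fit called 2 higher and 3 lower, median centring 2 and 16, and spike-in centring 0 and 19. Psmd14, the deubiquitinase of the lid, stood at 5.25, 5.14 and 5.12 against 5.49, 5.59 and 5.62 (0.40 ± 0.10, adjusted p = 0.0208), and it was at -0.54 with spike-in centring. Psmd11 was at 0.28 (adjusted p = 0.256), and Psmb5, which carries the site MG132 blocks most, fell by 0.47. The assembly chaperone Psmg2 fell by 1.24, and of the immunoproteasome subunits Psmb9 rose by 1.31 from a low level and Psmb10 fell by 1.19. With the slide blocked the calls of Psmd14 (adjusted p = 0.128), Psmb5 (adjusted p = 0.118) and Psmb10 (adjusted p = 0.103) were lost. Nfe2l1, which encodes NRF1, rose by 0.66, and was at -0.28 with spike-in centring.

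Of 33 genes for ubiquitin, its shuttles and the p97 segregase, 11 rose (33.3%) and 5 fell (15.2%), shares near the 26.0% and 17.7% of all genes; the median of 0.16 turned to -0.08 with median centring and to -0.78 with spike-in centring. The polyubiquitin gene Ubb rose by 0.42 (slide-blocked adjusted p = 0.359). Zfand2a, an arsenite-inducible partner of the proteasome, rose by 2.14, while the proteasomal deubiquitinase gene Usp14 fell by 0.47.

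The p53 targets had the highest median of all 36 lists. Of 31 targets, 25 rose and 0 fell, with a median of 2.15; the slide-blocked fit gave 1.94 (21 higher, 0 lower) and spike-in centring 1.21 (16 higher, 1 lower). Mdm2, the ubiquitin ligase of p53, rose from 4.58, 4.48 and 4.32 to 7.36, 7.40 and 7.27, a change of 2.88 ± 0.11 (adjusted p = 0.000171). Cdkn1a, the p21 cell-cycle inhibitor, rose from 0.43, -0.16 and 0.06 to 3.14, 3.08 and 3.28, a change of 3.06 ± 0.17. For both genes the spread within each group was smaller than the change, and the groups did not overlap. Plk2, a stress-induced kinase, rose by 3.84 and Ddit4, an inhibitor of mTORC1 signalling that ATF4 also drives, by 3.79. Trp53 itself was at -0.41 (adjusted p = 0.0921). Ddit4 and Sesn2 stand in both this list and that of ATF4.

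Among 21 genes of the Bcl2 family, 5 rose (23.8%) and 10 fell (47.6%), with a median of -0.34. The slide-blocked fit called 4 higher and 4 lower with a median of -0.37, so the larger count of falls was not kept there. The BH3-only genes Bbc3 (PUMA), Pmaip1 (NOXA) and Hrk rose by 2.29, 2.15 and 1.87. Bcl2l11, which encodes the BH3-only protein BIM, fell from 4.10, 3.87 and 3.24 to 1.58, 1.57 and 1.30, a change of -2.26 (adjusted p = 0.0012). Of the survival genes, Bcl2l1 fell by 0.75 and Mcl1 by 0.34, the latter not with the slide blocked (adjusted p = 0.252).

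The targets of ERK signalling were described beside their response to 4OHT alone, which shares the 4OHT arrays, so values are only set side by side. That response sets 6 h with 4OHT against untreated arrays at 0 h, so time in culture is part of it. In cells without MG132, 4OHT changed 29.8% of all genes (15.1% higher, 14.8% lower) and raised Dusp6, a phosphatase that restrains ERK, by 2.33, Spry4, a feedback inhibitor, by 3.33, Etv4, an ETS factor, by 2.625, Egr1 by 3.09, Fos by 2.02 and Myc by 2.02. With MG132 added, immediate-early genes split: of 30, 13 rose and 6 fell, with a median of 0.33 and of -0.61 with spike-in centring. Egr1, a zinc finger factor, rose further, from 4.45, 4.21 and 3.82 to 6.56, 6.53 and 6.28, a change of 2.30 ± 0.19 (adjusted p = 0.000585). Fosb and Egr2 rose by 2.29 and 2.23, Fosl1 by 2.03 and Fos by 1.56. In these 5 genes the groups did not overlap; with the slide blocked the calls of Fos (adjusted p = 0.063) and Fosl1 (adjusted p = 0.0971) were lost.

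Myc, a short-lived growth regulator, went the other way, from 3.67, 3.80 and 3.51 to 1.24, 1.22 and 1.14, a change of -2.46 ± 0.11 (adjusted p = 0.000222). The orphan receptor gene Nr4a1 fell by 1.42, Zfp36 by 1.02, Ier5 by 0.89 and the AP-1 gene Junb by 0.74 (slide-blocked adjusted p = 0.0752). Negative feedback and ETS genes were divided: of 29, 8 rose and 9 fell, with a median of -0.30, and the slide-blocked fit called 0 higher and 3 lower with a median of -0.16. Dusp6 stood at 5.20, 5.11 and 5.43 against 4.32, 4.32 and 4.51 (-0.86 ± 0.13, adjusted p = 0.00362), and its slide-blocked change was -0.37 (adjusted p = 0.427). Spry2 and Il17rd, inhibitors of receptor tyrosine kinase signalling, fell by 1.35 and 1.495. Spry4 (-0.43, adjusted p = 0.168) and Etv5 (-0.30, adjusted p = 0.0558) did not pass the test, and Etv4, at -0.44, was at 0.05 in the slide-blocked fit. Ligands of the EGF family stood among the rises, with Hbegf at 1.04 (slide-blocked adjusted p = 0.164) and Areg at least 21.8-fold higher.

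**Figure D4:**
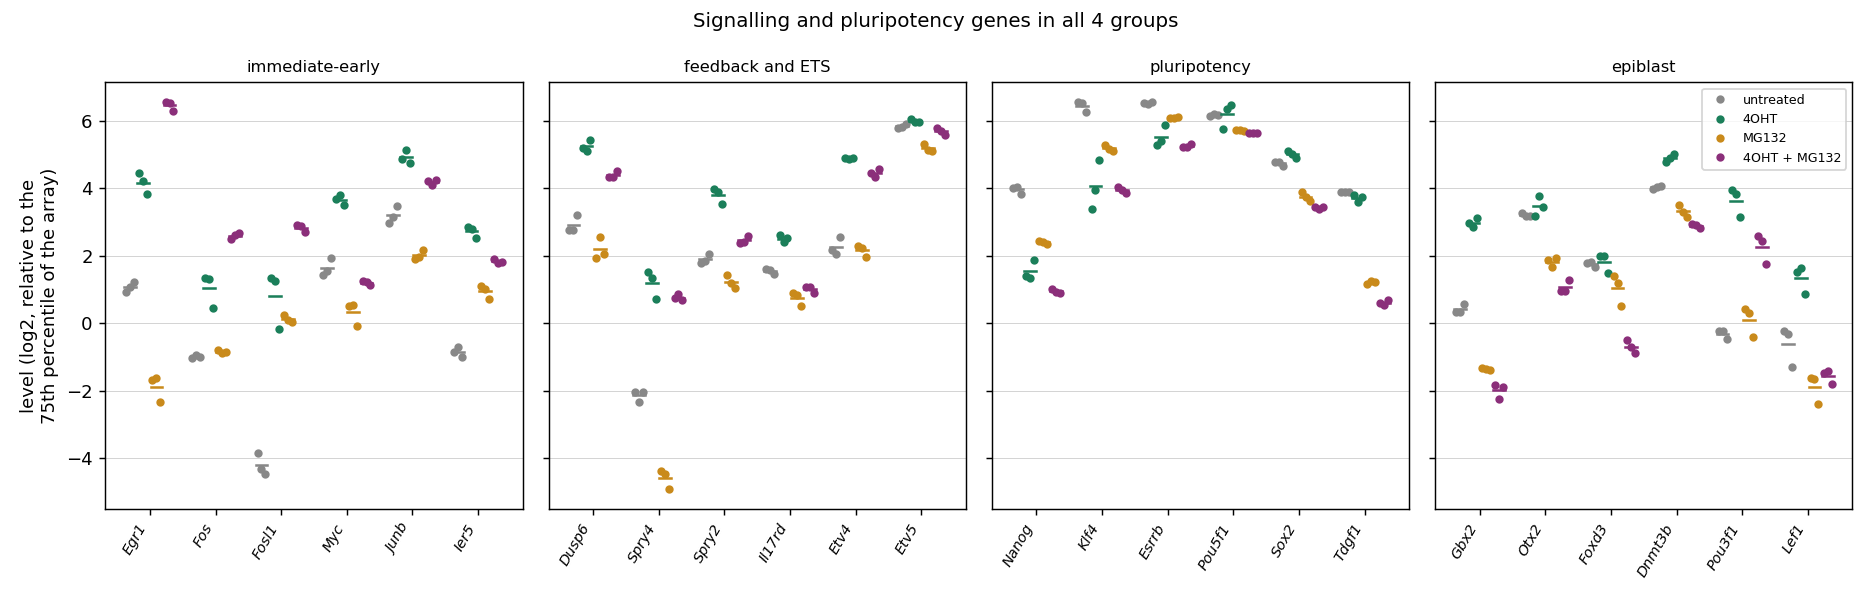
Levels (log2 relative to the 75th percentile of the array, y axis) of 24 signalling and pluripotency genes on all 12 arrays, by group; bars are group means, n = 3 each. Egr1 is highest with both compounds (mean 6.46) and lowest with MG132 alone (mean -1.89), while Gbx2 is highest with 4OHT alone (mean 2.97).

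In 3 pluripotency lists more genes fell than rose, and the core factors were unequal. Of 25 naive genes 15 fell and 2 rose (median -0.60), of 19 general pluripotency genes 14 fell and 1 rose (median -0.85), and of 23 formative and primed epiblast genes 15 fell and 0 rose (median -1.01). In the slide-blocked fit 6, 11 and 8 genes of these lists fell and 3, 0 and 1 rose, with medians of -0.47, -0.69 and -0.66. Sox2 fell from 5.12, 5.01 and 4.90 to 3.44, 3.38 and 3.43, a change of -1.59 ± 0.10 (adjusted p = 0.00036). Nanog stood at 1.41, 1.33 and 1.87 against 1.00, 0.94 and 0.91 (-0.59 ± 0.16, adjusted p = 0.0302), beside a change of -2.43 by 4OHT alone, which shares the 4OHT arrays; the slide-blocked change was -0.44 (adjusted p = 0.338), and another Nanog probe was at -1.34. For Pou5f1, which encodes OCT4 (-0.56, adjusted p = 0.0607), Klf4 (-0.12, adjusted p = 0.806) and Esrrb (-0.26, adjusted p = 0.263) the test was not passed; Klf4 ranged from 3.39 to 4.83 among the 4OHT arrays, which enclosed all values with both compounds.

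Larger falls were measured in Tdgf1, the Nodal co-receptor Cripto, which went from 3.81, 3.601 and 3.74 to 0.60, 0.55 and 0.67, a change of -3.11 ± 0.11. Other Tdgf1 probes were at -3.05, -2.96, -2.79 and -0.435. Gbx2, a homeobox gene that responds to both LIF and FGF, had the largest called fall among genes with a symbol and above background on all 6 arrays. It went from 2.96, 2.86 and 3.10 to -1.83, -2.26 and -1.90 (-4.97 ± 0.15, 31.4-fold, adjusted p = 0.000108 by limma). On the probes whose levels are given, neither gene's groups came within 2 units of each other. Of the epiblast regulators, Lef1 fell by 2.90, Foxd3 by 2.53, Otx2 by 2.40, the de novo methyltransferase Dnmt3b by 1.998 and Pou3f1 by 1.37.

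LIF and STAT3 targets had 13 falls and 1 rise among 19 genes, a median of -0.99 and, with the slide blocked, -0.92 (8 lower). Bcl3, an IκB family member, fell by 3.02 and Socs3, the feedback inhibitor of the receptor, from 4.66, 4.81 and 4.79 to 2.90, 2.80 and 2.33, a change of -2.08 ± 0.17. The receptor genes Lifr and Il6st fell by 1.20 and 0.51 and Stat3 by 1.14. With the slide blocked the calls of Il6st (adjusted p = 0.0888) and Stat3 (adjusted p = 0.0727) were lost. Gbx2, Myc, Klf5, Stat3 and Junb stand in more than 1 of these lists, so the counts are not independent.

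In other signalling lists genes moved both ways, beside 26.0% of all genes called higher and 17.7% called lower. Shares of the Wnt (22.2% and 27.8%), FGF (28.6% and 9.52%) and NF-kB lists (27.3% and 18.2%) lay near these, so their counts say little about the lists. The BMP list had 38.9% each way and the retinoic acid list 42.1% and 26.3%. Among BMP and SMAD genes 7 rose and 7 fell of 18: Id3 rose by 1.38, while Bmp4 fell by 1.92, Skil by 1.82 and the homeobox gene Msx1 by 2.83. Nodal rose by 0.96, and the related ligand gene Gdf3 and the SMAD partner gene Foxh1 fell by 1.73 and 0.44. Of 18 Wnt target genes 4 rose and 5 fell, Fzd7 by 2.11 and Sp5 by 1.86. FGF genes had 6 rises and 2 falls of 21; Fgf17 fell by 2.28 and Fgf4 by 0.60, and the receptor genes Fgfr1 and Fgfr3 rose by 0.98 and 0.65. With the slide blocked the calls of Nodal (adjusted p = 0.157), Foxh1 (adjusted p = 0.0684), Fgf4 (adjusted p = 0.269) and Fgfr3 (adjusted p = 0.601) were lost. In the retinoic acid list 8 of 19 rose and 5 fell, and genes of breakdown and of synthesis each moved both ways. Cyp26a1, which degrades retinoic acid, fell from 0.55, 0.67 and -0.09 to -4.14, -3.73 and -4.21 (-4.41 ± 0.24). Cyp26b1, of the same family, rose, with changes from 0.297 to 2.552 over the alternative settings, and lost its call in 3 of 20. Of the synthesis genes, Aldh1a2 and Rdh10 rose by 1.61 and 1.38 and Aldh1a3 fell by 2.14. The receptor gene Rarg fell by 1.49. Among 22 NF-kB targets 6 rose and 4 fell, with the chemokine Cxcl10 at 5.34, above background on 1 of 3 arrays with 4OHT.

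Lineage markers gave no common direction. Primitive endoderm genes had 5 rises and 0 falls of 20, 25% against the 26.0% of all genes called higher, led by Afp at 5.72 from a level above background on 1 of 3 arrays, and neural and Notch genes 9 and 3 of 19, with the Notch ligand Dll1 at 2.71 and Pax6, an eye and brain factor, at -3.94. Mesendoderm genes had 4 and 3 of 15 (26.7% and 20.0%) and trophoblast genes 3 and 4 of 17 (17.65% and 23.5%), against 26.0% and 17.7% of all genes. The 11 genes of the 2-cell-like state had a median of 1.17 with wide spread: 0 rose and 1, Zfp352 at -0.46, fell. Tcstv3 (1.43), Zscan4c (1.31), Zscan4f (1.28), Gm4340 (1.25), Zscan4b (1.18), Arg2 (1.17) and Zscan4a (1.11) did not pass the test, which does not pair replicates, and their groups overlapped. Tcstv3 stood at -0.55, -0.41 and -2.685 with 4OHT against 0.62, 0.87 and -0.83 with both compounds, replicate 3 being the lowest in each group. The slide-blocked fit called 2 higher, Tcstv3 and Gm4340, and 0 lower, with a median of 0.92. The fibroblast and feeder list had 5 rises and 3 falls of 13; Thy1, also a stem cell surface protein, fell by 2.23 and Col1a1 rose by 2.45 from a level above background on 1 of 3 arrays, and their part in the other results was not tested.

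Hypoxia genes fell more often than they rose, with a median of -0.45 and, with the slide blocked, -0.79: 13 of 26 fell and 5 rose. Pdk1, which diverts pyruvate from the mitochondria, fell from 4.68, 4.71 and 4.70 to 1.89, 1.80 and 1.96 (-2.81 ± 0.10, adjusted p = 0.00013), and the glycolytic genes Aldoc, Hk2 and Ldha fell by 1.73, 1.30 and 0.98. Other Pdk1 probes were at -3.03, -2.95 and -0.07. Of 26 cholesterol synthesis genes 14 were called higher and 0 lower; the median of 0.71 turned to -0.23 with spike-in centring; Insig1, a regulator of the pathway, rose by 2.22.

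Of 28 mitotic genes 13 fell (46.4%) and 4 rose (14.3%), against 17.7% and 26.0% of all genes, with Aurkb at -1.27 and Ccnb2 at -0.91; the slide-blocked fit called 4 lower and 1 higher. Of 36 replication and G1/S genes 10 fell (27.8%) and 7 rose (19.4%), 4 and 3 with the slide blocked; Ccnd2, Ccne1 and Ccnd3 fell by 2.22, 1.82 and 1.65. Ribosome biogenesis genes had 12 falls (33.3%) and 3 rises (8.33%) of 36, with Nop10 at -1.38 and Bop1 at -1.01. The slide-blocked fit called 3 lower and 0 higher, and median centring 21 lower and 0 higher. Ribosomal protein genes had 6 rises and 0 falls of 44, from 0.30 to 0.40, and their median of 0.21 was -0.04 with median centring and -0.73 with spike-in centring; none was called in the slide-blocked fit. Mediator and elongation genes had 8 of each among 40 (20.0%), histone genes 3 rises and 2 falls of 18 (16.7% and 11.1%), and SRF targets 6 and 5 of 24 (25.0% and 20.8%). These shares stand against 26.0% higher and 17.7% lower of all genes.

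Outside the lists, the largest rises among genes with a symbol and above background on all arrays were in Bglap2, an osteocalcin gene with near-identical copies (5.46), 9530053A07Rik (5.29), Crhr2, a receptor for the corticotropin-releasing hormone family (5.19), Ddit4l (5.04), the stress kinase gene Map3k20 (4.32) and Ephx1, an epoxide hydrolase (4.23). The largest falls named beside Gbx2 and Cyp26a1 were in Aire (-4.07), the glutamate receptor gene Grm6 (-4.05), Pax6 (-3.94), Nol4 (-3.46), Esam (-3.43), Mir124a-1hg (-3.40), D930048N14Rik (-3.37, on 2 arrays with 4OHT), Edn2 (-3.26) and Vwa1 (-3.18). Of genes below background in all 3 arrays of a group, Tac1, which encodes substance P, was at least 25.8-fold higher, Btla at least 19.9-fold and Car6 at least 18.0-fold higher. Meox1 was at least 8.85-fold lower, Chst5 at least 7.31-fold, Myrfl at least 5.95-fold, H2al1h at least 5.70-fold and 4930405O22Rik at least 5.35-fold lower. The last rests on 4OHT levels of -4.98, -1.53 and -1.98, and its slide-blocked change was -1.72 (adjusted p = 0.438), while H2al1h had a slide-blocked adjusted p of 0.0542.

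Whether the response to MG132 differed with 4OHT was tested over all 12 arrays, where 1818 of 25227 genes (7.21%) passed, 827 with a higher response under 4OHT (3.28%) and 991 with a lower one (3.93%). The response without 4OHT sets MG132 at 6 h against untreated arrays at 0 h, while that with 4OHT compares arrays at 6 h. MG132 and time in culture cannot be told apart in the former, so the differences may hold a part of time. All arrays with both compounds lay on the second slide; with slide and replicate blocked 896 genes passed, 362 higher and 534 lower, and 30 of 67 named differences lost their call, none with a change of direction. Across the 15348 genes with a symbol the response with 4OHT and that without it, which share no array, correlated with r = 0.763; MG132 alone changed 45.0% of genes (25.3% higher, 19.7% lower), and genes are not independent replicates. Egr1 stood out in direction: MG132 changed it by 2.30 with 4OHT and by -2.96 without it, a difference of 5.25 ± 0.30 (adjusted p = 2.95e-05). Hspa1a rose by 6.31 and 4.72, a difference of 1.59 (adjusted p = 0.00252), Ddit3 by 5.14 and 3.28, a difference of 1.86, and Cdkn1a by 3.06 and 0.98, a difference of 2.07. Mdm2 rose by 2.88 and 2.72, and the difference of 0.16 did not pass the test (adjusted p = 0.53).

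Fosb and Egr2, which rose by 2.29 and 2.23 with 4OHT, were at -0.01 and 0.004 with MG132 alone, differences of 2.30 and 2.22. Lower responses included genes that 4OHT alone raised. The same 4OHT and untreated arrays enter the difference, so by arithmetic a rise with 4OHT lowers it and a fall with 4OHT raises it. The overlap is no separate result in either direction. Bcl2l11, at a mean of -0.23 in untreated cells and 3.74 with 4OHT, changed by -2.255 with 4OHT and 0.71 without it, a difference of -2.96 ± 0.30 (adjusted p = 0.000474). For Gbx2 the difference was -3.21, for Thy1 -3.365 and for Msx1 -3.22. Among genes with a symbol, the 8 lowest differences were in Slc35f1 (-5.435), Nol4 (-5.15), Grm6 (-4.77), Slco2b1 (-4.69), Gsx1 (-4.67), Hoxa13 (-4.42), Esam (-4.30) and Edn2 (-4.21). Their mean levels in untreated cells ran from -8.02 to -4.64, at the dim end of the array. Hoxa13 was not well above background on any array with both compounds. The 8 highest differences among genes with a symbol were in Lefty1 (5.88), Egr1, Krt76 (3.57), Tunar (3.48), Fgf10 (3.41), Zfhx4 (3.26), Dkk3 (3.19) and Tmem163 (3.12). All but Egr1 and Krt76 had lower means with 4OHT alone than untreated, such as Lefty1 at -3.36 against 2.74 and Dkk3 at -3.69 against 0.33. On the 4OHT arrays Zfhx4 was well above background on 0 of 3, Tmem163 on 1, and Krt76, Tunar and Fgf10 on 2, so the sizes and order of these differences are uncertain. With slide and replicate blocked Krt76 (adjusted p = 0.052), Tunar (0.0507), Zfhx4 (0.0821) and Dkk3 (0.0758) lost their call, and Fgf10 and Tmem163 lost it with the slide alone blocked (0.23 and 0.227). Lefty1, a Nodal antagonist, fell by 3.99 with MG132 alone and stood at -4.12, -4.15 and -1.81 with 4OHT against -1.46, -1.10 and -1.86 with both compounds (1.89, adjusted p = 0.0613), so the groups overlapped there.

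**Figure D5:**
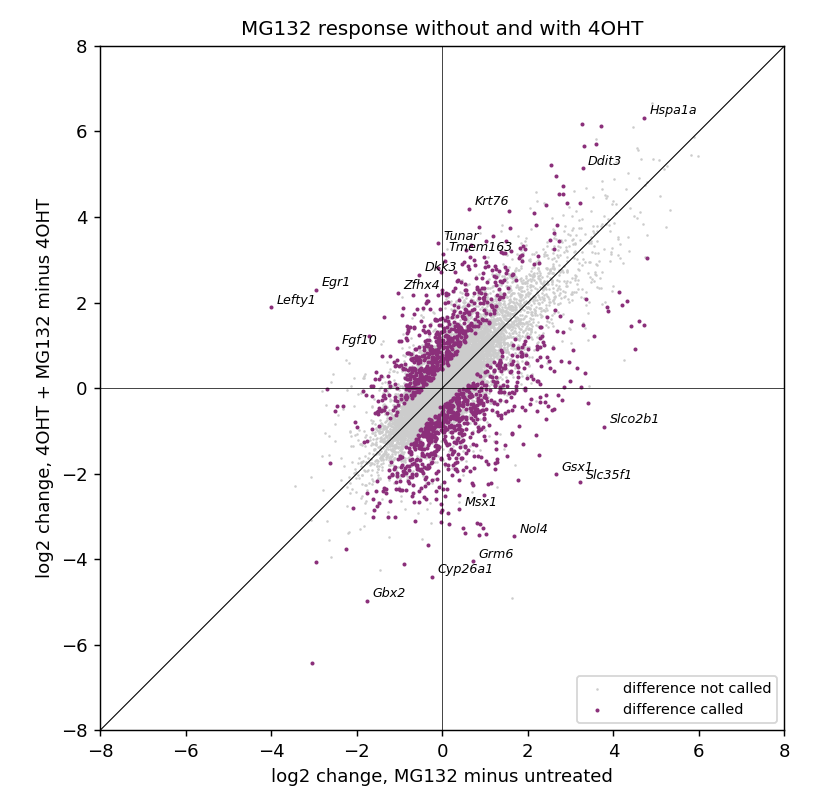
Change with MG132 at 6 h against untreated cells at 0 h (log2, x axis) against the change with MG132 in 4OHT-treated cells (log2, y axis) for 15348 genes, with genes whose difference was called in purple and the line of equal change. Most genes lie near the line, whereas Egr1 and Lefty1 lie below 0 without 4OHT and above 0 with it, and Slc35f1 and Gsx1 the other way round.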

How the data were processed

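RNA of 12 cultures was hybridised to one-colour Agilent arrays. Per the file headers, the deposited intensity values are processed signals of Agilent Feature Extraction 11.0.1.1. The deposited value table of the series holds the same processed intensities, so the alternative that used it repeats the main fit. Control spots and outlier spots were left out, and each array's log2 intensity was taken relative to its 75th percentile. Of 56605 probes, 32994 were named through RefSeq accessions (GRCm38.p6), and 23611 have no name here. A probe entered if every array of at least 1 group measured it well above background, with 1 probe per gene, which gave 25227 genes, 15348 with a symbol. limma 3.58.1 in R 4.3.3 was fitted to the 6 arrays, and to all 12 for the difference between MG132 responses, with p-values adjusted by Benjamini-Hochberg over all genes. The procedure was checked on simulated data.

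The members and the 36 lists were chosen with earlier results of these data known. Among genes with a symbol, the rule named the 12 largest rises and falls, the 5 highest bounds for each sign, at most 4 members per list, the 8 largest differences in each direction and a set of genes of known role. Further list members were chosen after their values were seen. A bound sets the bright group against the lowest signal well above background. Alternatives were the scaling, background correction, filter, probe choice, array weights, slide and replicate blocks and leaving out each array. A few genes that the rule named or the lists hold are not reported here.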

Additional observations from a re-analysis of the deposited data

Results flagged for a closer look

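The response to MG132 differed with 4OHT in 1818 genes by the test of the difference over all 12 arrays, and the named genes that passed it are given here with the response with 4OHT minus that without it (log2). The response without 4OHT is taken against untreated arrays at 0 h, so time in culture cannot be told apart from MG132 there. By arithmetic, a fall with 4OHT alone raises the difference and a rise with 4OHT alone lowers it. The response was higher with 4OHT by the most in Lefty1 (5.88), Egr1 (5.25), Krt76 (3.57), Tunar (3.48), Fgf10 (3.41), Zfhx4 (3.26), Dkk3 (3.19), Tmem163 (3.12), Gdf15 (2.91), Car6 (2.68), Dll1 (2.42), Spic (2.15), Afp (2.13), Cdkn1a (2.07) and Spry4 (2.03). Smaller positive differences were measured in Ddit3 (1.86), Cebpb (1.855), Hspa1a (1.59), Fos (1.43), Tbx6 (1.27), Fbn1 (1.11), Map3k20 (1.09), Ccn2 (1.09), Cdk19 (1.02), Plet1 (1.01), Trp53inp1 (1.005), Dnajb1 (0.98), Nanog (0.98), Frs3 (0.87), Sqstm1 (0.78) and Hmox1 (0.64).

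The response was lower with 4OHT by the most in Slc35f1 (-5.435), Nol4 (-5.15), Grm6 (-4.77), Slco2b1 (-4.69), Gsx1 (-4.67), Hoxa13 (-4.42), Esam (-4.30), Edn2 (-4.21), Cyp26a1 (-4.165), Thy1 (-3.365), Vwa1 (-3.34), Rxrg (-3.31), Msx1 (-3.22), Gbx2 (-3.21), Meox1 (-3.21), Myrfl (-3.07), Bcl2l11 (-2.96), Fhl2 (-2.80) and Sp5 (-2.605). Smaller negative differences were measured in Foxd3 (-1.81), Evx1 (-1.575), Chst5 (-1.51), Bcl3 (-1.40), Nr5a2 (-1.365), Xbp1 (-1.30), Dnmt3b (-1.29), Myc (-1.15), Aire (-1.12), Skil (-1.04), Otx2 (-1.03), Ccne1 (-0.99), E2f2 (-0.84), Pdk1 (-0.72), Bop1 (-0.67), Psmg2 (-0.635) and Sox2 (-0.605). Mean levels in untreated cells were under -7 in Hoxa13, Slco2b1, Grm6, Nol4, Slc35f1, Krt76 and Afp. Hoxa13, Meox1, Myrfl and Chst5 were not well above background on any array with both compounds, nor Zfhx4 and Car6 on any with 4OHT, and Tmem163, Dll1, Afp and Tbx6 were so on 1 of 3 with 4OHT, Krt76, Tunar, Fgf10 and Fbn1 on 2. The sizes of these differences rest on dim signals. Where a gene was not well above background on every array of 1 compared group, it entered only through the other group.

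All arrays with both compounds lay on 1 slide. With slide and replicate blocked, 896 genes passed, and 30 of the 67 differences given here lost their call: those of Krt76, Tunar, Zfhx4, Dkk3, Gdf15, Car6, Afp, Cebpb, Fos, Tbx6, Fbn1, Map3k20, Cdk19, Nanog, Frs3, Sqstm1, Hmox1, Sox2, Psmg2, Bop1, Pdk1, E2f2, Ccne1, Otx2, Myc, Xbp1, Nr5a2, Chst5, Evx1 and Myrfl. With the slide alone blocked 841 genes passed and 24 of the 67 lost it. None changed direction in either fit.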

How the results depend on the processing

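Of 168 named genes that passed the test, 78 kept direction and call in all 21 settings, and 18 in the 20 that could be run for them, since the filter on signal on every array dropped them. The series-wide value table is among these settings and repeats the main values. Slide and replicate blocks together weakened 41 of 178 named genes and reversed 2. With median centring 4204 genes were higher, with spike-in centring 904 higher and 8508 lower, and with spike-in centring without replicate 1 of 4OHT, an alternative chosen after seeing the data, 2711 and 10867. A fixed slide block gave 5532 calls (3060 higher, 2472 lower), slide and replicate blocks 5120 (2929 and 2191), and a 2-fold minimum 4877 (3434 and 1443). Leaving out 1 array gave 7260 to 12917 calls, 4292 to 7988 higher and 2859 to 4929 lower; without replicate 1 with both compounds there were 7291 calls and without replicate 2 there were 7260. For the difference between MG132 responses, median centring gave 655 lower, spike-in centring 518 (37 higher, 481 lower), no filter 1676 lower, array weights 6416 (3697 and 2719), the fixed slide block 841 (369 and 472), slide and replicate blocks 896 (362 and 534) and a 2-fold minimum 1017 (443 and 574). Leaving out 1 array gave 1081 to 2600, with 460 to 1356 higher and 621 to 1244 lower; the total was 1171 and 1126 without untreated replicate 1 or 2, 1207 and 1133 without MG132 replicate 1 or 2, and 1127 and 1081 without replicate 1 or 2 with both compounds. Arrays were not paired by replicate number in the main fit, and whether the numbers pair the samples was not settled. Deviations of same-numbered arrays correlated at 0.061, 0.12 and 0.307, all positive, and 1 of 3 correlated best with its own number. The replicate block gave 10504 calls and 2697 differences, 1287 of them higher. Spike-in centring reversed Rpl12 (-0.540), Rpl32 (-0.615), Rpl14 (-0.621), Rpl10a (-0.623), H3f3b (-0.290), H2aw (-0.421), H2aj (-0.540), Fn1 (-0.255), Psmd14 (-0.539) and Nfe2l1 (-0.279). Il6 was at -1.482 with the fixed slide block and -1.201 with slide and replicate blocks, and Etv4 at 0.053 with the latter; the cause was not tested. The slide and the groups compared cannot be told apart within a slide, and 979 genes have only a bound in 1 group.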
